A study of Homo sapiens with 6 samples.

Results

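The Hedgehog pathway was followed through 9 genes of the deposited count table, taken by name: the ligands IHH, SHH and DHH, the receptor PTCH1, the signal transducer SMO, the ligand-binding antagonist HHIP and the transcription factors GLI1, GLI2 and GLI3. They are 9 of the 57773 genes in the table. The 6 samples were cultures of HepG2, a cell line established from a human hepatocellular carcinoma. Of these, 3 received recombinant human TGFB1 ligand at 5 ng/mL and 3 received the vehicle, and all were collected after 3 h. Every culture came from the same line with no genetic change or other agent, and the labels give a growth medium with serum, whereas the study's methods place the cells in medium without serum during the treatment. The question asked of these genes was whether a rise of a ligand was matched by the genes that the pathway itself switches on.

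Hedgehog ligands are secreted proteins that bind PTCH1 at the surface of the receiving cell. Unbound PTCH1 holds SMO inactive. When a ligand binds, SMO is released, and GLI2 and GLI3 can then act as activators of transcription. PTCH1, GLI1 and HHIP are direct targets in most tissues, so their RNA is widely used as a readout of an active pathway, and PTCH1 and HHIP in turn limit the ligand. In liver, IHH and SHH are known as signals that hepatocytes and bile duct cells send to stellate cells and fibroblasts, whereas mature hepatocytes respond little. GLI2 is also known as a gene that TGFβ can induce through SMAD3 without a Hedgehog ligand.

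The promoter sequences of the ligands IHH and SHH, of PTCH1 and of GLI2 are shown first. For PTCH1 and GLI2, which have several start sites, the one shown was chosen for its motif. It was the GLI consensus for PTCH1 and the initiator for GLI2, so differences in motifs between the windows shown follow in part from this choice. RefSeq start sites were available for 7 of the 9 members, with 12 start sites in all, and those of GLI1 and GLI3 were not used here. The windows end at the base before the start site, are written in the direction of transcription, and were placed on GRCh37 (hg19) by an exact match. They hold 250 bases each and no annotated exon of the gene. IHH lies on the minus strand, and its window is chr2:219925644-219925893. SHH lies on the minus strand, and its window is chr7:155605158-155605407. The PTCH1 window is that of the start site at 98271548 on the minus strand, chr9:98271549-98271798. The GLI2 window is that of the downstream start site at 121549857 on the plus strand, chr2:121549607-121549856, which holds the letters of the GLI2 initiator. Capitals mark the core SMAD motif (CAGAC, or GTCTG on the other strand), the GLI consensus (GACCACCCA, or TGGGTGGTC on the other strand) and the GLI2 initiator (TCATTCT).
IHH: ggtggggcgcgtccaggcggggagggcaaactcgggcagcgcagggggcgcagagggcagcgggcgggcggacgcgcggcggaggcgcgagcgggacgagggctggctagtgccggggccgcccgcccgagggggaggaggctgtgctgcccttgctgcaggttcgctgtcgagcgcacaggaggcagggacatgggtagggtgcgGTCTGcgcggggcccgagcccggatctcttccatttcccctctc
SHH: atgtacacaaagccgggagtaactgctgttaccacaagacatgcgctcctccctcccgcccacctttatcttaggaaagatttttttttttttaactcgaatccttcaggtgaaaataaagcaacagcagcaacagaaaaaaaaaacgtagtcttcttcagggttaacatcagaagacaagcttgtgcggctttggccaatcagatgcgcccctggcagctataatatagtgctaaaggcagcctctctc
PTCH1: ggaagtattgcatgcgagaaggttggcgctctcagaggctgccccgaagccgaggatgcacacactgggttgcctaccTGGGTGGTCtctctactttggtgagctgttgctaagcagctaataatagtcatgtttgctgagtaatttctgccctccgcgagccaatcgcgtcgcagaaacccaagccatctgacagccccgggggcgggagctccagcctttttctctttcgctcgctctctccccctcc
GLI2: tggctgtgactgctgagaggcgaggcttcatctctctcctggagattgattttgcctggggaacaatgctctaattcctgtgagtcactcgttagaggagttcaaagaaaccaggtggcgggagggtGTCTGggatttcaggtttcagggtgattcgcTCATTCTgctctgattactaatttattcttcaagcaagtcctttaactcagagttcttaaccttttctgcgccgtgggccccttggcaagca
In the IHH window the SMAD motif starts at -44, counted from the start site, and in the SHH window there was none. Both ligands hold a SMAD motif just past the start site, with its first base 21 bases downstream in IHH and 32 bases downstream in SHH. The PTCH1 window holds the GLI consensus at -172. Of the other PTCH1 start sites, those at 98270322, 98269709 and 98269481 hold SMAD motifs and that at 98279253 holds no motif of either kind. In the GLI2 window a SMAD motif starts at -123 and the initiator at -92. These positions count from the RefSeq start site, which need not be the start site used in the paper. In the paper the initiator defines the GLI2 promoter, with a SMAD binding element close upstream of the transcription start site. A SMAD motif was found in 7 of the 12 member windows of 300 bases, and in 45.3% of the 35116 windows of the same length at RefSeq start sites of all genes. The 12 are not independent, because several belong to PTCH1. Its windows at 98269709 and 98269481 overlap and share a SMAD motif. The GLI consensus was found in 1 of the 12, and in 0.236% of all windows. The initiator letters were found in 2.35% of all windows on the coding strand. These matches describe the sequence only.

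The libraries held between 60815385 and 88415362 reads on genes with vehicle and between 73263662 and 100099136 with TGFβ. Widely known TGFβ targets were used to check the labels, and SMAD7, SKIL and PMEPA1 rose without overlap of the groups, by 1.72 to 4.30 on the log2 scale. All 8 hepatocyte markers had reads (ALB, AFP, APOA1, APOB, TF, FGB, HNF4A and TTR), with a summed level from 33217 to 36689 CPM with vehicle and from 31159 to 35438 CPM with TGFβ, where CPM is the read count scaled to library size by TMM. Of the leukocyte markers, CD3E had 0 reads and PTPRC a single read over the 6 libraries, while LYZ and CD68 had many; the list summed to between 1132 and 1457 CPM with vehicle and between 985 and 1084 CPM with TGFβ. The 3 endothelial markers in the table (CDH5, VWF and KDR) summed to at most 0.272 CPM with vehicle and 0.236 CPM with TGFβ, with KDR at 0. The 5 stellate cell and fibroblast markers summed to between 13.6 and 14.9 CPM with vehicle and between 23.3 and 34.6 CPM with TGFβ. Most of this sum came from COL1A1 (mean 7.54 and 11.2 CPM) and PDGFRB (6.77 and 15.8 CPM), which passed the test with the block only, while LUM had 2 reads with vehicle and 0 with TGFβ, DCN 16 and 13, and COL3A1 6 and 22. With the block LYZ (FDR 0.0157) and the hepatocyte markers FGB (FDR 0.0331) and TTR (FDR 0.0495) were lower. The part of such cells in the values below was not tested. In these bulk samples, a change in the number of cells that make an RNA and a change in the RNA per cell cannot be told apart.

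Among the 9 members, IHH, SHH and PTCH1 were higher with TGFβ at a false discovery rate (FDR) under 0.05, and 0 members were lower. SMO, GLI1 and HHIP were tested and did not pass, and DHH, GLI2 and GLI3 had too few reads for the test. The test was edgeR's quasi-likelihood test, adjusted by Benjamini-Hochberg over the 22747 genes with enough reads. Over all of these genes 4.12% were called, 3.11% higher and 1.01% lower. Of the 6 tested members, 4 had all TGFβ cultures above all vehicle cultures, which held for 10.4% of the tested genes, and 1 had all below, which held for 8.23%. GLI1 is among the 4 and entered the test through the TGFβ cultures, and HHIP is the 1 below and entered it through the vehicle cultures, so these counts are a description only. The log2 fold change was above 0 for 5 of the 6, against 49% of the tested genes. Same-numbered cultures deviated together, and with the number as a block the same 3 members were called. The share called over all genes then rose to 11.8%, with 8.08% higher and 3.75% lower. Cultures of number 1 shared lane 1 and those of number 2 shared lane 3, while those of number 3 were on lanes 4 and 5. For numbers 1 and 2, pairing and lane cannot be told apart.

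**Figure D1:**
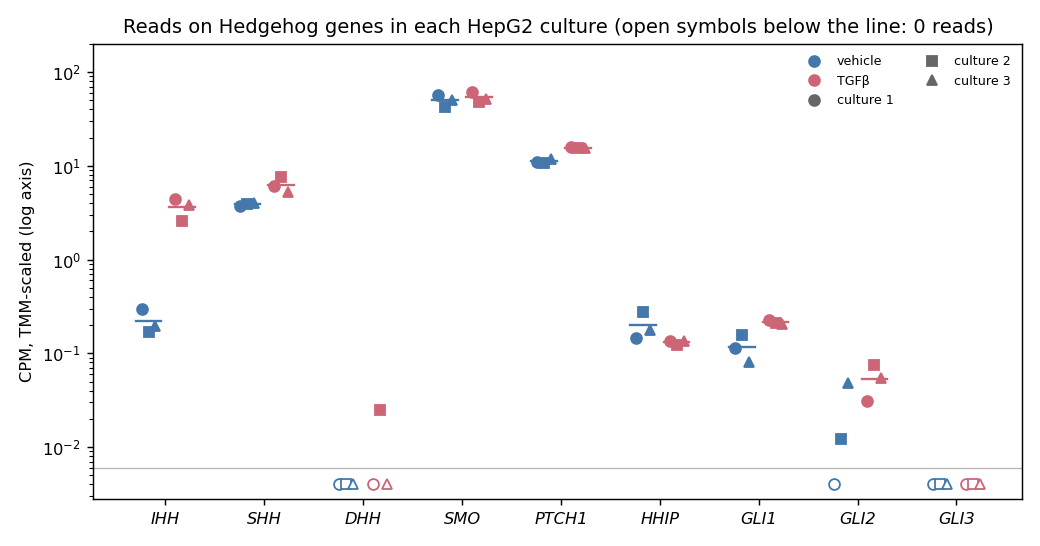
TMM-scaled CPM of the 9 members in each culture on a log axis, vehicle in blue and TGFβ in red, with a bar at the group mean where no culture had 0 reads and open symbols for 0 reads. IHH lies between 0.169 and 0.295 CPM with vehicle and between 2.60 and 4.42 CPM with TGFβ, SMO lies between 43.0 and 61.3 CPM over both groups, and GLI3 has 0 reads in all 6 cultures.

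IHH, the ligand best known from cartilage and gut, changed most. It had 26, 14 and 12 reads in vehicle cultures 1, 2 and 3, and 428, 209 and 277 reads in TGFβ cultures 1, 2 and 3. In TMM-scaled CPM these were 0.295, 0.169 and 0.195 with vehicle and 4.42, 2.60 and 3.80 with TGFβ. The groups lay far apart, and the lowest TGFβ culture was well above the highest vehicle culture. The mean rose from 0.219 ± 0.0663 CPM (SD, n = 3) to 3.60 ± 0.925 CPM (SD, n = 3). On the log2 scale IHH rose by 4.01 with a standard error (SE) of 0.30 (FDR 7.70e-05), which is 16.2-fold with a 95% interval from 10.2 to 25.6. It was the 8th largest of the 707 rises that passed the threshold. The log2 ratio of same-numbered cultures was 3.80, 3.76 and 4.12 for numbers 1, 2 and 3, so the pairs differed little.

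IHH (ENSG00000163501) spans 219919142 to 219925189 on the minus strand of chromosome 2 in hg19. The microRNA gene MIR3131 lies within it on the same strand, from 219923410 to 219923472, and had 1 read over the vehicle cultures and 17 over the TGFβ cultures. Reads counted for MIR3131 cannot be told apart from reads of the IHH transcript. IHH itself had 52 and 914. The next gene with reads on the side of its 3′ end, CCDC108, lies 12893 bp from it, with 1 read over the vehicle cultures and 5 over the others. On the other side, RP11-33O4.1 lies 8887 bp from it and did not pass the test (log2 fold change 0.49, FDR 0.655).

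SHH, the ligand with most reads in the vehicle cultures, rose less. Its level with vehicle was 3.75, 3.95 and 4.04 CPM in cultures 1, 2 and 3, and with TGFβ it was 6.04, 7.67 and 5.21 CPM. The vehicle cultures were close together, and every TGFβ culture lay above them, with a wider spread. The means were 3.91 ± 0.150 CPM (SD, n = 3) and 6.31 ± 1.25 CPM (SD, n = 3). The 95% interval of the fold change, 1.61, ran from 1.25 to 2.07, and the FDR of 0.0448 was close to the threshold. The log2 ratios of same-numbered cultures were 0.68, 0.95 and 0.36. TGFβ culture 2 was thus highest for SHH and lowest for IHH. Without that culture the log2 fold change of SHH was 0.51 and the FDR 0.195, and the call also failed without vehicle culture 1 (FDR 0.125), 2 (FDR 0.156) or 3 (FDR 0.150) and without TGFβ culture 1 (FDR 0.0901). It failed as well with total-count scaling (FDR 0.0637) and with limma-voom (FDR 0.0558). These fits did not use the pairs, and with the culture number as a block the FDR of SHH was 0.00492. SHH was picked by the study from these same libraries, so its rise here is not independent evidence. Apart from these libraries, the paper reports a rise of SHH RNA in qRT-PCR after TGFβ and after TFII-I knockdown. The nearest genes with reads, RBM33 and AC021218.2, are 18501 and 150359 bp away, with log2 fold changes of 0.11 (FDR 0.648) and 0.31 (FDR 0.388). With the block AC021218.2 was higher (log2 fold change 0.30, FDR 0.0467) and RBM33 did not pass.

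DHH, the ligand of the testis and peripheral nerve, had 2 reads, both in TGFβ culture 2, and 0 in the other 5 libraries. Both groups were at or under 3 reads per group, so no fold was computed. A gene at 0 reads in one of these libraries can have had up to 3 reads, or between 0.0310 and 0.0487 CPM depending on the library, by counting error alone.

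Per length, as the table gives it for each gene (2023 bases for IHH and 5038 for SHH), the means of the ligands changed order. This order depends on those lengths. In CPM, which takes no account of length, SHH stayed above IHH in every TGFβ culture (means 6.31 and 3.60 CPM). With vehicle, the deposited RPKM was 0.643 ± 0.0306 (SD, n = 3) for SHH and 0.0894 ± 0.0258 for IHH, and the ranges did not overlap. With TGFβ it was 1.01 ± 0.233 for SHH and 1.43 ± 0.354 for IHH, and the ranges overlapped. IHH made up 16.4%, 9.63% and 10.7% of the summed RPKM of IHH and SHH in vehicle cultures 1, 2 and 3, and 64.6%, 45.8% and 64.5% in TGFβ cultures 1, 2 and 3. IHH was above SHH in TGFβ cultures 1 and 3 and below it in culture 2. The sum of the pair was 0.732 ± 0.00493 RPKM (SD, n = 3) with vehicle and 2.44 ± 0.264 RPKM (SD, n = 3) with TGFβ, which is 3.34-fold. For that sum an exact permutation test, two-sided, gave P = 0.1, and no smaller value is possible with groups of 3.

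**Figure D2:**
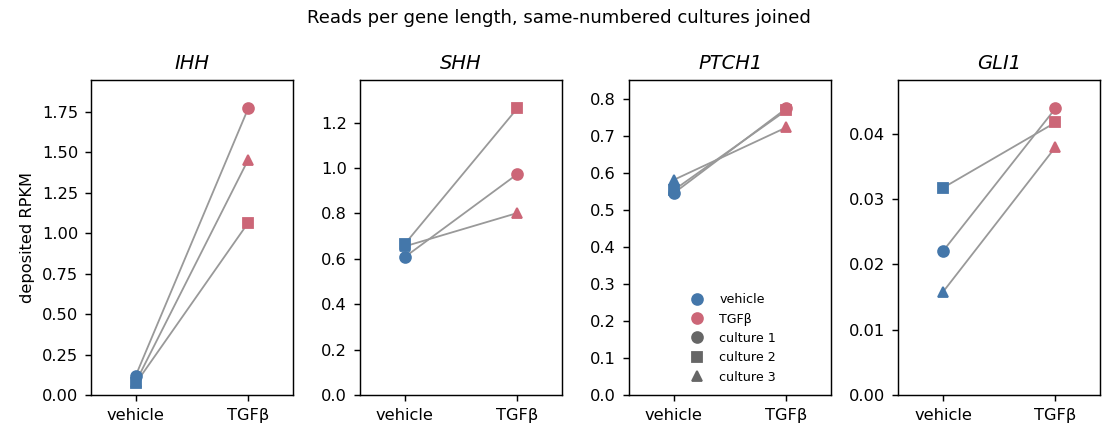
Deposited RPKM (reads per gene length and library size) of IHH, SHH, PTCH1 and GLI1, with same-numbered vehicle and TGFβ cultures joined by a line; each panel has its own axis from 0. Every line goes up, IHH from at most 0.119 to at least 1.07 and PTCH1 from at most 0.581 to at least 0.722.

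PTCH1, the receptor and a target of the pathway, rose by a smaller factor and with little spread. Its level was 11.1, 10.8 and 11.8 CPM in vehicle cultures 1, 2 and 3 and 15.8, 15.4 and 15.5 CPM in TGFβ cultures 1, 2 and 3. The groups did not overlap, and the 3 TGFβ cultures were almost equal. The means were 11.2 ± 0.522 CPM (SD, n = 3) and 15.5 ± 0.230 CPM (SD, n = 3), which on the log2 scale is a rise of 0.47 (SE 0.09, FDR 0.0177) and 1.39-fold with a 95% interval from 1.20 to 1.60. The log2 ratios of same-numbered cultures were 0.51, 0.51 and 0.39. The call failed without vehicle culture 2 (FDR 0.0930) or 3 (FDR 0.0560) and without TGFβ culture 1 (FDR 0.0776) or 2 (FDR 0.0720), with log2 fold changes from 0.44 to 0.51. These fits did not use the pairs, and with the culture number as a block the FDR of PTCH1 was 0.00171.

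PTCH1 (ENSG00000185920) spans 98205262 to 98279339 on the minus strand of chromosome 9, and 3 RNA genes of the other strand lie within it. RP11-435O5.5, from 98268517 to 98269918, is the one with most reads, 302 with vehicle and 482 with TGFβ. For RP11-435O5.4 the sums were 31 and 44, for RP11-435O5.6 they were 1 and 0, and for PTCH1 itself 2599 and 3894. The use of strand in the counting is not given in the sources used here, so reads of the 2 strands cannot be told apart. When the reads of these genes were subtracted from PTCH1, an alternative chosen after seeing the data, PTCH1 rose by 0.46 on the log2 scale (FDR 0.0212).

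SMO, which carries the signal across the membrane, was the most abundant member per length and did not pass the test. It had 56.6, 43.0 and 50.96 CPM in vehicle cultures 1, 2 and 3 and 61.3, 48.1 and 51.8 CPM in TGFβ cultures 1, 2 and 3. The ranges overlapped, and in both groups culture 1 was highest and culture 2 lowest. SMO differed by 0.10 on the log2 scale (SE 0.12, FDR 0.824), and the 95% interval leaves room for a fold from 0.891 to 1.29. Within same-numbered cultures the log2 ratios were 0.11, 0.16 and 0.02. The antisense RNA gene RP11-286H14.8 overlaps SMO, with 447 reads against 11695 for SMO in the vehicle cultures, and SMO without them had a log2 fold change of 0.09 (FDR 0.833).

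GLI1, the transcription factor whose RNA follows pathway activity most closely, had 10, 13 and 5 reads in vehicle cultures 1, 2 and 3, and 22, 17 and 15 in TGFβ cultures 1, 2 and 3. In CPM the groups did not overlap, with 0.0812 to 0.157 for vehicle and 0.206 to 0.227 for TGFβ. The difference of 0.84 on the log2 scale (SE 0.36, FDR 0.326) did not pass the test. The 95% interval of the fold, from 1.03 to 3.12, comes from 28 reads with vehicle and 54 with TGFβ. GLI1 had enough reads for the test in 3 TGFβ cultures and in 1 vehicle culture only, so that it entered the test through the group in which it was higher. ARHGAP9 overlaps the end of GLI1 by 8 bp on the other strand, and its reads summed to 52 and 41.

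HHIP, which traps ligands at the cell surface and is also a target of the pathway, was counted 13, 23 and 11 times in vehicle cultures 1, 2 and 3, and 13, 10 and 10 times in the TGFβ cultures. In CPM it was at 0.147, 0.278 and 0.179 with vehicle and at 0.134, 0.124 and 0.137 with TGFβ. All TGFβ cultures were below all vehicle cultures, by little in culture 1. HHIP differed by -0.61 on the log2 scale (SE 0.37, FDR 0.579), with a 95% interval of the fold from 0.369 to 1.17. It was -0.29 without vehicle culture 2. HHIP-AS1, on the other strand over 15337 bp of the gene, had 1 and 5 reads. HHIP had enough reads for the test in 3 vehicle cultures and in 2 TGFβ cultures.

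GLI2, the factor that the study is about, was counted 0, 1 and 3 times in vehicle cultures 1, 2 and 3, and 3, 6 and 4 times in the TGFβ cultures. The scaled ratio of the summed reads was 3.02, with an exact (Clopper-Pearson) 95% interval from 0.934 to 12.7 for counting error alone. Because this interval covers 1, a difference was not detectable at this depth. The ratio stayed above 1 when any single culture was left out, from 1.88 without vehicle culture 1 to 8.89 without vehicle culture 3. By PCR, the paper reports that TGFβ raised GLI2 RNA in HepG2 cells. GLI3, the main repressor of the pathway, had 0 reads in all 6 libraries, and HMGN2P30, a processed pseudogene inside GLI3, had 4 reads with vehicle and 8 with TGFβ. Over the 9 members the order of RPKM with vehicle was SMO (9.61), SHH, PTCH1 (0.559), IHH, GLI1 (0.0232), HHIP (0.0139) and GLI2 (0.00227), with DHH and GLI3 at 0. In that order the ranges of GLI1 and HHIP overlapped, and those of GLI2 and DHH overlapped at 0. With TGFβ IHH moved from the fourth to the second place, and the other members kept their order.

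**Figure D3:**
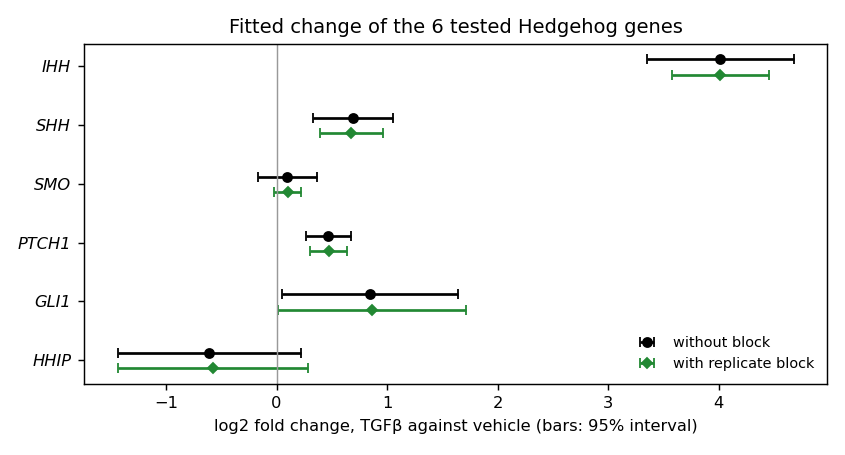
Fitted log2 fold change of TGFβ against vehicle for the 6 tested members, with 95% intervals, without the block (black circles) and with the culture number as a block (green diamonds). IHH stands at 4.01, SHH at 0.69 and PTCH1 at 0.47. GLI1 stands at 0.84 with intervals just above 0, but it was not called (FDR 0.326). The intervals of SMO and HHIP cover 0. All intervals are for single genes, without adjustment for the number of genes tested.

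Whether the log2 rises of the targets equalled those of the ligands was tested on the difference itself. A target can respond without an equal rise, so these differences do not show whether the pathway was active. All cultures were collected at 3 h, and later times were not measured. For each culture, log2 CPM (prior count 2) of a target was subtracted from that of a ligand, and TGFβ was compared with vehicle. There were 6 such differences, tested with exact permutation tests, two-sided, and adjusted over the 6. IHH rose by 3.42 more than PTCH1, by 3.10 more than GLI1 and by 4.38 more than HHIP on the log2 scale (exact permutation P = 0.1 each, adjusted P = 0.15). No smaller P is possible with groups of 3, so the design could not pass 0.05. Within same-numbered cultures the excess of IHH over PTCH1 ran from 3.25 to 3.73, that over GLI1 from 2.93 to 3.38 and that over HHIP from 3.91 to 4.78, in the same direction in all 3 pairs. A sign-flip test over 3 pairs, which cannot go below 0.25, gave exact P = 0.25 for each. SHH exceeded PTCH1 by 0.20, with same-numbered cultures from -0.02 to 0.45 (exact permutation P = 0.4, adjusted P = 0.48). SHH stood to GLI1 at -0.12, with same-numbered cultures from -0.76 to 0.58 (exact permutation P = 0.7, adjusted P = 0.7). It exceeded HHIP by 1.15, from 0.69 to 1.97 (exact permutation P = 0.1, adjusted P = 0.15). In all 3 pairs the log2 ratio of IHH was larger than that of PTCH1, GLI1 or HHIP. For SHH against PTCH1 and SHH against GLI1 the sign of the difference varied between pairs.

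The other genes of the pathway were counted in 4 lists with 46 genes, of which 41 had enough reads. Of these, 1 was higher and 0 were lower, beside 3.11% and 1.01% of all tested genes. Their median log2 fold change was 0.08, against -0.0054 over all tested genes, and 27 of the 41 were above 0, beside 49% of all tested genes. With the block 4 were higher and 0 lower, beside 8.08% and 3.75% of all tested genes.

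CDON, a coreceptor that presents the ligand to PTCH1, was the gene that rose. It went from 14.3, 15.4 and 16.2 CPM in vehicle cultures 1, 2 and 3 to 27.8, 26.3 and 25.5 CPM in TGFβ cultures 1, 2 and 3. The groups were well apart and the spread within each was small. CDON rose by 0.80 on the log2 scale (SE 0.09, FDR 0.000715), which is 1.74-fold, and it passed without any single culture. The other 2 tested genes of the list did not pass. GPC3, its most abundant gene and a known liver tumor antigen, differed by 0.08 on the log2 scale (SE 0.13, FDR 0.867). GAS1 had 0 reads in all 6 libraries, and BOC had 17 reads with vehicle and 14 with TGFβ.

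Of the genes for ligand maturation and release, 5 of 6 were tested and 0 passed, also with the block. HHAT, the acyltransferase that modifies the ligands and the most abundant gene of this list, differed by -0.12 on the log2 scale (SE 0.16, FDR 0.844). Of the 24 genes that control the GLI factors downstream of SMO, 23 were tested and 0 passed. With the block 3 of them were higher by small factors, namely the casein kinases CSNK1E (1.18-fold, FDR 0.0290) and CSNK1D (1.13-fold, FDR 0.0447) and the ciliary kinesin KIF7 (1.17-fold, FDR 0.0455). Over all tested genes 8.08% were higher with the block. CUL1, a cullin of the ubiquitin ligases that process GLI proteins and the most abundant gene of that list per length, differed by 0.16 on the log2 scale (SE 0.08, FDR 0.453). Of the 11 genes of transport in the primary cilium, where SMO acts, 10 were tested and 0 passed, also with the block. The most abundant, KIF3B, differed by 0.09 on the log2 scale (SE 0.07, FDR 0.698).

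A further list held 21 other genes that have been reported as Hedgehog or GLI targets in other tissues. Of these, 11 had enough reads, 1 was higher and 0 were lower, beside 3.11% and 1.01% of all tested genes, and the median log2 fold change was 0.11, beside -0.0054. CCND1, the cyclin that drives entry into the cell cycle, was the one that rose, from 287, 291 and 278 CPM in vehicle cultures 1, 2 and 3 to 488, 444 and 437 CPM in TGFβ cultures 1, 2 and 3. Its groups did not overlap, and it rose by 0.68 on the log2 scale (SE 0.07, FDR 0.000689). With the block, which changed the count in this list most, CCND2 (log2 fold change 0.48, FDR 0.0139) and CCNE1 (0.40, FDR 0.000416) were also higher, and BMP4 (-0.28, FDR 0.00539) and CDK6 (-0.38, FDR 0.0203) were lower, beside 8.08% higher and 3.75% lower among all tested genes. These genes answer to many other signals. SPP1, the most abundant of the list, differed by 0.11 on the log2 scale (SE 0.10, FDR 0.755). The mesenchymal targets FOXF1 and FOXL1 had 2 reads each with vehicle and 0 with TGFβ. FOXF2, of the same list, went the other way, with 7 reads with vehicle and 17 with TGFβ. PTHLH, the classical target of IHH in cartilage, had 11 reads with vehicle and 28 with TGFβ. All of these had too few reads for the test.

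**Figure D4:**
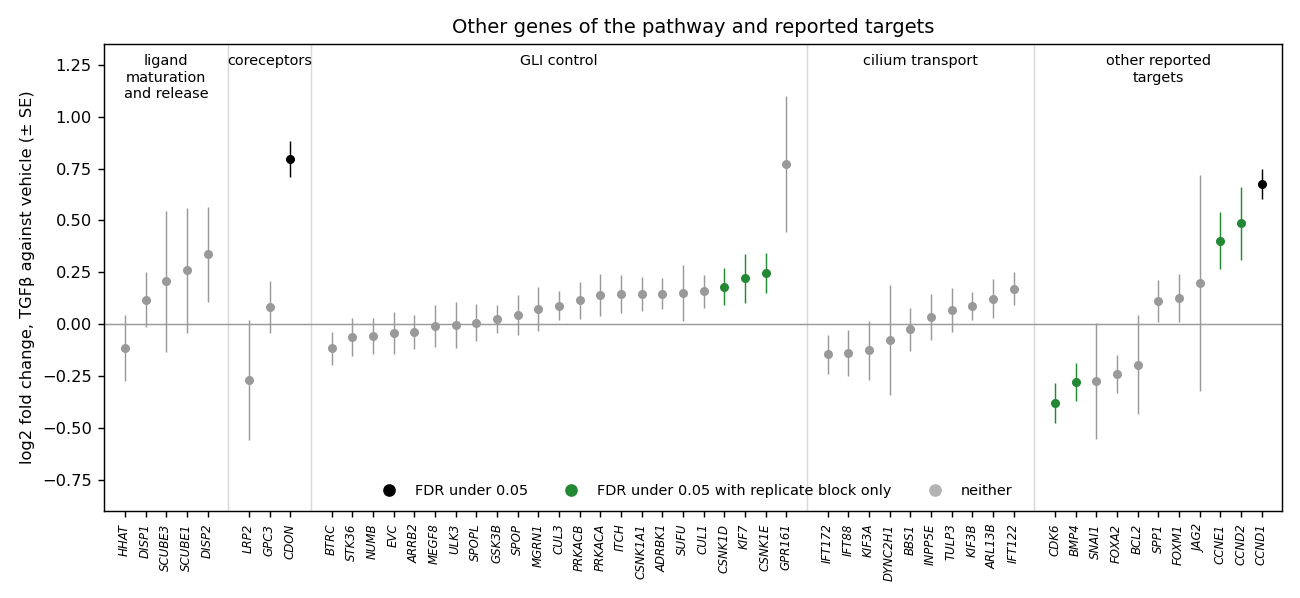
Log2 fold change of TGFβ against vehicle, with standard errors, for the tested genes of the 5 lists, ordered by value within each list; black marks an FDR under 0.05, green an FDR under 0.05 with the replicate block only. CDON at 0.80 and CCND1 at 0.68 are the 2 black points, and most of the other genes lie close to 0.

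The genes whose log2 CPM followed each ligand most closely over the 6 cultures were listed as a description. For IHH these were CORO2A, GRIN2D, SEPHS2, AP000439.3 and KIAA0247, with Pearson correlations from 0.998 to 0.999. For SHH they were POLD4, DHRS3, CPSF4L, RAB22A and UBE2V1, with correlations from 0.990 to 0.994. The points are 6 cultures in 2 groups, and of the 22747 tested genes 406 had a correlation above 0.95 with IHH and 212 with SHH. The changes of these genes were smaller than that of IHH except for AP000439.3, with a log2 fold change of 4.28.

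**Figure D5:**
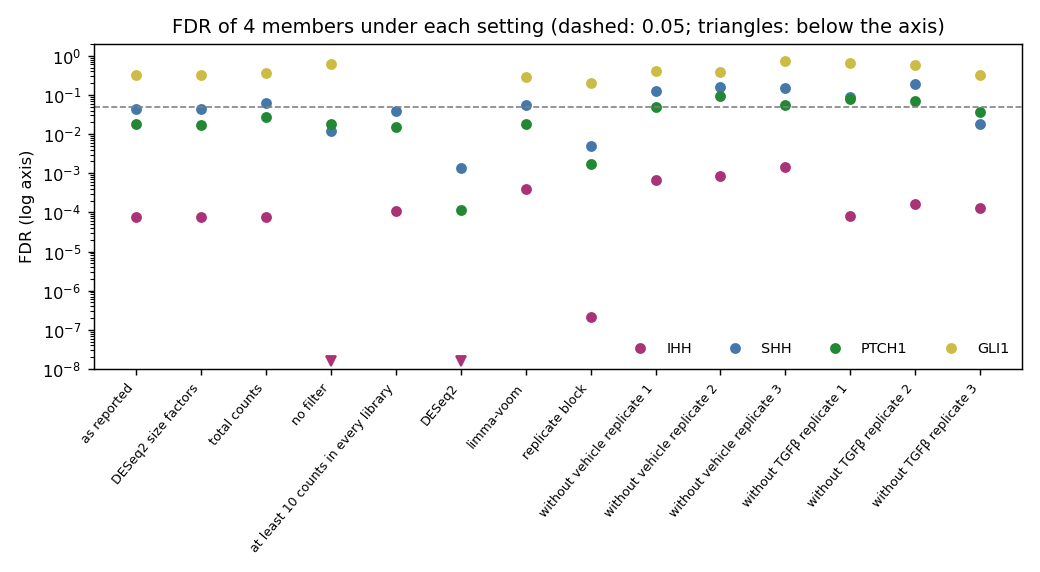
FDR of IHH, SHH, PTCH1 and GLI1 on a log axis with the analysis as reported and under each alternative, with the 0.05 threshold dashed and triangles for values below the axis. IHH stays below the threshold throughout, GLI1 stays above it wherever it has an FDR, and SHH and PTCH1 cross it when single cultures are left out.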

How the data were processed

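The authors prepared TruSeq v2 mRNA libraries from HepG2 cultures (3 vehicle, 3 TGFβ), sequenced paired reads and aligned them to hg19; the submitters' processing notes name TopHat2 2.0.6 and HTSeq, and the paper names MAPRseq for counting. They deposited raw counts per gene without normalization, and RPKM values beside them, scaled by the gene length in the table and by library. The annotation release, the strand setting and the rule for overlapping genes were not stated in the sources used.

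Groups and culture numbers were taken from the sample labels. Counts were analysed with edgeR 4.0.16 in R 4.3.3 (TMM, filterByExpr with a minimum of 10 counts, quasi-likelihood F test with robust=TRUE and no block term, Benjamini-Hochberg over 22747 genes, FDR under 0.05). Standard errors were taken from the F statistic, and intervals are 95% intervals from the moderated degrees of freedom. The gene-wise fits (edgeR with and without the block, DESeq2 and limma-voom) were tested on simulated counts that held no pairs. The other steps were not tested in that way. Between replicates the chi-square per gene was 21.0 to 46.2, so all were kept as separate samples, and P-values measure the spread between these cultures only. Same-numbered cultures deviated together (correlations of deviations from the group means 0.366, 0.227 and 0.316, against at most 0.0101 for other pairs). Deviations within a group cancel out, which lowers the values for other pairs. Only the replicate block, the sign-flip test and the same-numbered ratios used these pairs. The reported test and the fits with a culture left out did not. RPKM was used only to compare levels between genes. A gene at 0 reads was given a limit of 3 reads.

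Alternatives were DESeq2's size factors, total counts, a minimum of 10 counts in all libraries, no filter at all, DESeq2 1.42.0, limma-voom (limma 3.58.1), a replicate block and leaving out each culture. A gene each of the coreceptor list and of the label check is not reported here and was left out of the counts. The members, lists and rules were chosen with earlier results of these data known. All members were named, and of each list the genes past the threshold and the most abundant gene by vehicle RPKM; genes of the lists that passed only with the block, or that had too few reads, were picked after their values were seen. Gene strands came from GENCODE on GRCh37 and promoter sequences from RefSeq (GRCh38.p14), located on GRCh37 by exact match.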

Additional observations from a re-analysis of the deposited data

How the results depend on the processing

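Among the members, IHH passed the threshold and kept its direction under every alternative, with log2 fold changes from 3.83 to 4.30. GLI1 and HHIP kept their direction and passed under none that gave an FDR. Between 1 and 3 members were called when single cultures were left out, with SHH between 0.51 and 0.80 and PTCH1 between 0.44 and 0.51 on the log2 scale. SHH fell short of the threshold with total counts (log2 fold change 0.65) and with limma-voom (0.68). SMO changed sign without vehicle culture 2 (-0.0071) and without TGFβ culture 1 (-0.01), with a range from -0.0126 to 0.19 over left-out cultures, and the difference of SHH and GLI1 changed sign without vehicle culture 3 (0.096), ranging from -0.31 to 0.10. Over all genes 937 were called, 1415 with DESeq2, 2690 with the replicate block, and between 485 and 998 with single cultures left out. The pathway lists went from 1 call to 4 with the block, and the other reported targets from 1 to 5 with the block, 3 without a filter, and 2 with total counts, with at least 10 counts in every library or with DESeq2. The cause of these moves was not tested. The replicate block changed no call of a member, with an FDR of 2.18e-07 for IHH, 0.00492 for SHH and 0.00171 for PTCH1. GLI1 (82 reads over the 6 libraries), HHIP (80 reads) and GLI2 (4 reads with vehicle, 13 with TGFβ) had few reads, and their intervals are wide.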
